A study of Caenorhabditis elegans with 22 samples.

Results

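The aquaporin genes *aqp-1* to *aqp-8* of *Caenorhabditis elegans* were followed in embryos at high and normal salt. They were taken by gene identifier, as F32A5.5 (*aqp-1*), C01G6.1 (*aqp-2*), Y69E1A.7 (*aqp-3*), F40F9.9 (*aqp-4*), C35A5.1 (*aqp-5*), C32C4.2 (*aqp-6*), M02F4.8 (*aqp-7*) and K02G10.7 (*aqp-8*). All 8 were found among the 45460 genes of the expression table. The study asked how the sulfotransferase SSU-1 and the insulin-regulated transcription factor DAF-16 shape the response of embryos to osmotic stress, and RNA was sequenced after 3 h on plates with 500 mM NaCl or with 50 mM NaCl, the normal concentration. Experiment 1 held *ssu-1* mutant embryos (3 libraries at 500 mM and 2 at 50 mM) and wild-type N2 embryos (3 at 500 mM and 2 at 50 mM). Experiment 2 held *daf-16* mutant embryos (3 libraries at 500 mM and 3 at 50 mM) and wild-type N2 embryos (3 at 500 mM and 3 at 50 mM). The experiments were assigned from the library numbers in the labels. Of the wild-type libraries at 50 mM placed in experiment 2, 2 have numbers of another series than the rest of that experiment. The methods name the alleles *ssu-1(fc73)* and *daf-16(m26)*. The labels of the *ssu-1* libraries list further alleles of that gene (tm1117, n5883, gk319712, gk266317, gk876992 and gk747222) and the transgene zIs356, which carries *daf-16a/b* fused to GFP under the *daf-16* promoter with the marker *rol-6*, and the labels of the *daf-16* libraries add mu86. Which of these the sequenced strains carried is not settled by the labels, so the strains are called *ssu-1* and *daf-16* mutants.

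Aquaporins are membrane channels that let water follow an osmotic gradient, and some of them, the aquaglyceroporins, also pass glycerol. Glycerol is the main osmolyte that *C. elegans* accumulates in high salt, so these channels stand on both sides of the response, the loss of water and the holding of glycerol. In frog oocytes the worm AQP-2 and AQP-4 proteins were found to carry water, and AQP-3 and AQP-7 to carry water and glycerol. The *aqp-1* gene encodes a glycerol channel of the intestine whose expression was tied to DAF-16 and glucose in adult worms, *aqp-4* is also active in the intestine, and *aqp-8* is active in the excretory canal cell, the worm's organ of fluid balance.

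Levels are given in FPKM, fragments per kilobase of transcript scaled to the mapped fragments of the library, which allows different genes to be compared per length. The libraries held an estimated 14300000 to 28400000 fragments (median 22400000), an estimate made from the spacing of low FPKM values. The yolk, adult cuticle and sperm genes *vit-2*, *vit-5*, *vit-6*, *col-19*, *gsp-3* and *msp-142* summed to at most 0.86 FPKM in any library. The *ssu-1* gene was at 1.53 ± 0.28 FPKM in *ssu-1* mutants, against 2.85 ± 0.13 FPKM in wild type, at 500 mM (SD, n = 3 each), and the *daf-16* gene was at 249.6 ± 41.8 FPKM in *daf-16* mutants, against 228.7 ± 18.3 FPKM in wild type, at 500 mM (SD, n = 3 each). At 50 mM the *daf-16* gene averaged 153.4 FPKM in *daf-16* mutants (149.1 to 155.6), against 84.6 FPKM in wild type (74.0 to 91.2). The cause of this higher level was not tested. The mean of the transcript was not reduced in the mutants at either concentration, so a loss of it cannot check the label of the *daf-16* libraries. A change was called at an adjusted p-value under 0.05 in limma fits of log2(FPKM + 1) across all genes with at least 1 FPKM in at least 2 libraries. On this scale the change of a gene near 1 FPKM is understated.

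The 8 genes spanned a very wide range of levels. *aqp-2* was by far the most abundant and lay between 1341 and 3681 FPKM. It ranked between 3 and 8 among all genes of each library, except at 50 mM in experiment 2, where it ranked between 99 and 106 in *daf-16* mutants and between 90 and 125 in wild type. It made up between 80.1% and 98.4% of the summed FPKM of the 8 genes. *aqp-7* came next, between 30.8 and 223.4 FPKM, followed at 50 mM by *aqp-1* and *aqp-4*, then *aqp-8*, *aqp-6* and *aqp-5*. At 500 mM *aqp-8* stood above *aqp-1* in every group. In wild-type embryos of experiment 2 at 500 mM *aqp-8* averaged 11.2 FPKM, *aqp-6* averaged 8.82, *aqp-4* averaged 7.19 and *aqp-1* averaged 4.03 FPKM, and no neighbors in that order overlapped over their 3 libraries. Neighbors in the order overlapped only between *aqp-1* and *aqp-6* in *ssu-1* mutants at 500 mM and between *aqp-6* and *aqp-4* in *daf-16* mutants at 500 mM. *aqp-5* was low, between 1.12 and 3.89 FPKM, which corresponds to about 22 to 96 fragments in a library. *aqp-3* was listed above 0 in 3 of 22 libraries, all of them at 50 mM, with 0.15 FPKM in a *daf-16* library and 0.07 and 0.04 FPKM in wild-type libraries, about 4 fragments at most. It did not pass the filter in either experiment and was not tested, which leaves 7 members in every comparison below.

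**Figure D1:**
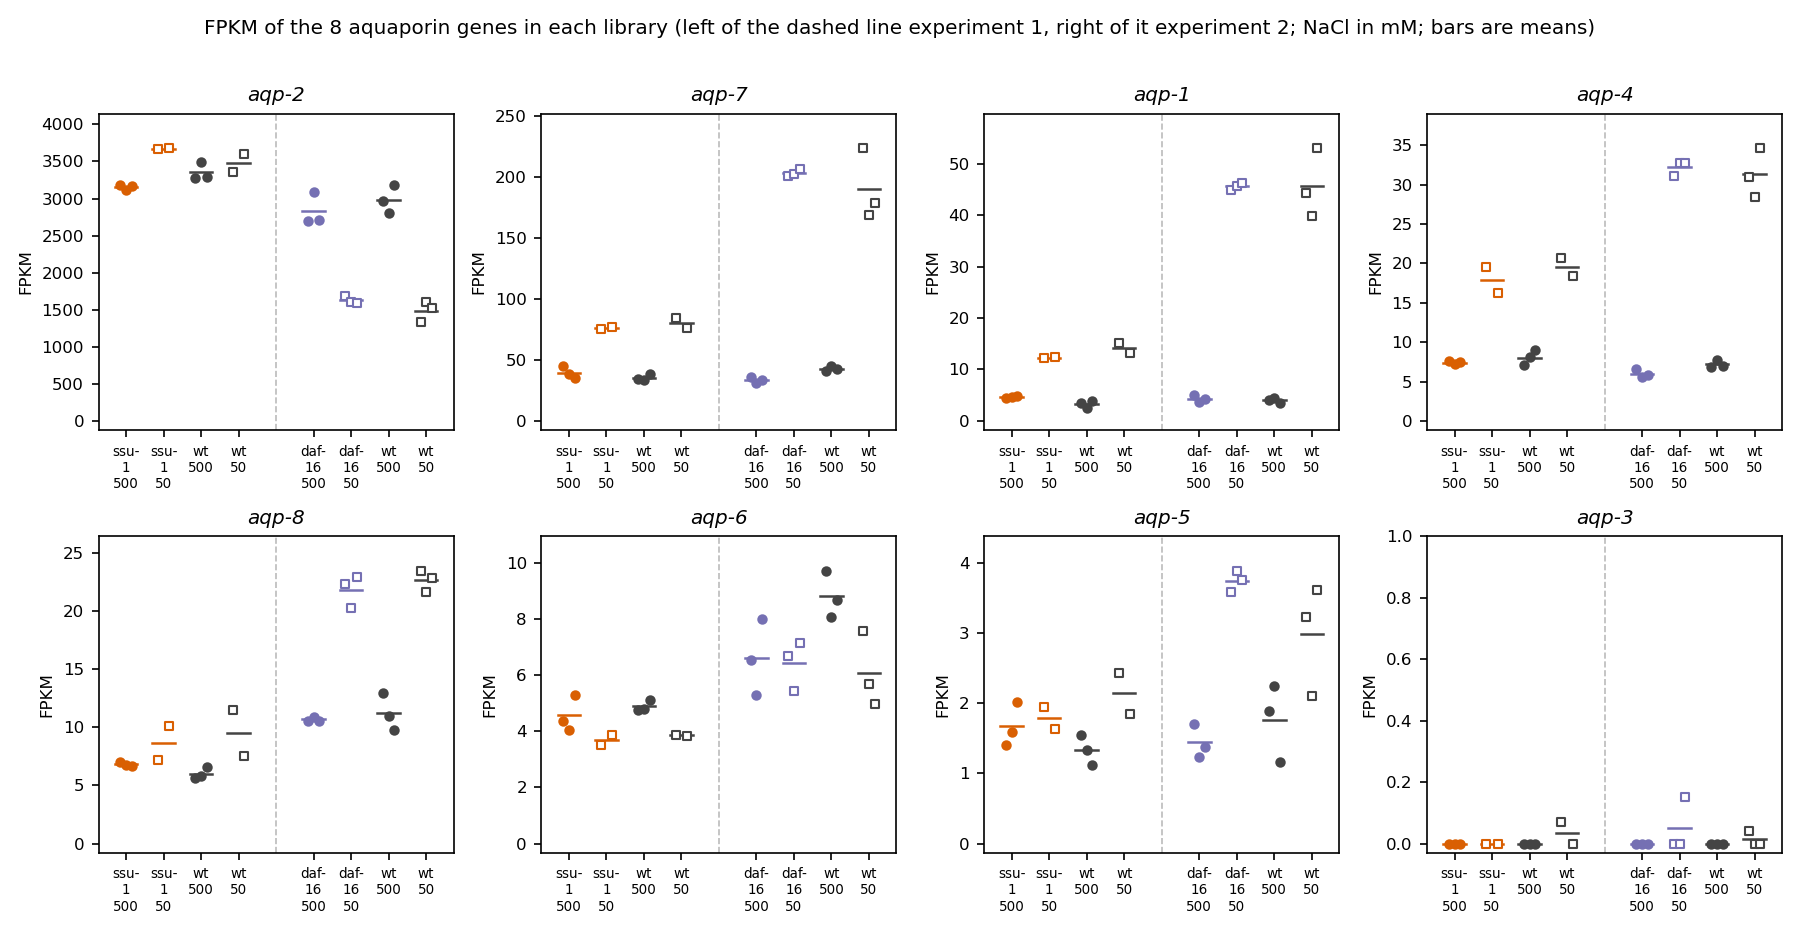
FPKM of each aquaporin gene (vertical axis, linear, a separate scale for each panel) in every library, with filled circles for 500 mM NaCl, open squares for 50 mM and bars for the group means. The 3 salt-treated wild-type libraries of experiment 2 sit between 3.46 and 4.53 FPKM for *aqp-1* and far below the libraries at 50 mM, while *aqp-2* is higher at 500 mM in experiment 2 and *aqp-3* stays near 0.

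In wild-type embryos, most of the tested aquaporin genes fell with salt. In experiment 1, 5 of the 7 tested genes fell at 500 mM and 0 rose, where 26.0% of all 13924 tested genes were called lower and 25.3% higher. In experiment 2, 5 of 7 fell and 2 rose, where 33.5% of all 14868 tested genes were called lower and 36.7% higher. The median log2 change of the 7 was -0.96 in experiment 2, against 0.06 over all tested genes, and -0.56 in experiment 1, against -0.01 over all tested genes. The summed FPKM of the 8 genes, most of it *aqp-2*, did not follow this count in experiment 2. It averaged 3062 at 500 mM, against 1787 at 50 mM, in experiment 2, and 3413 against 3614 in experiment 1.

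The glycerol channel gene *aqp-1* showed the largest fall of the 7 in wild type. In experiment 2 it was at 4.11, 4.53 and 3.46 FPKM at 500 mM, against 44.2, 39.8 and 53.0 FPKM at 50 mM. Every salt-treated library was thus far below every library at 50 mM, and the ratio of the means was 11.3-fold lower. The log2 change was -3.21 ± 0.12 (SE, adjusted p = 5.05e-10), and 1.07% of tested genes had a lower one. In experiment 1 it was at 3.40, 2.55 and 3.89 FPKM at 500 mM, against 15.2 and 13.2 FPKM at 50 mM. The groups again did not overlap, with a log2 change of -1.84 ± 0.13 (SE, adjusted p = 3.74e-06) and a mean that was 4.33-fold lower.

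The water and glycerol channel gene *aqp-7* fell in the same way from its higher level at 50 mM. It was at 41.0, 45.2 and 42.2 FPKM at 500 mM, against 223.4, 168.5 and 178.1 FPKM at 50 mM, in wild type of experiment 2. The means differed 4.44-fold (log2 change -2.11 ± 0.10, SE, adjusted p = 2.69e-09). In experiment 1 it was at 34.3, 33.5 and 38.8 FPKM at 500 mM, against 84.3 and 76.1 FPKM at 50 mM, a 2.26-fold lower mean (log2 change -1.15 ± 0.10, SE, adjusted p = 1.48e-05). No library at 500 mM reached a library at 50 mM in either experiment.

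The intestinal water channel gene *aqp-4* also fell in both experiments. It was at 6.88, 7.76 and 6.93 FPKM at 500 mM, against 30.9, 28.4 and 34.6 FPKM at 50 mM, in experiment 2, with a log2 change of -1.98 ± 0.10 (SE, adjusted p = 3.54e-09). In experiment 1 it was at 7.06, 8.13 and 8.95 FPKM at 500 mM, against 20.7 and 18.4 FPKM at 50 mM, with a log2 change of -1.19 ± 0.11 (SE, adjusted p = 2.56e-05). The levels at 500 mM were therefore within a narrow band in both experiments, and the groups did not overlap. In the Ensembl annotation 39 bases of *aqp-4* overlap the gene *marc-1* on the same strand, so fragments of that stretch cannot be assigned with certainty.

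The excretory canal gene *aqp-8* fell less. It was at 12.99, 10.98 and 9.78 FPKM at 500 mM, against 23.5, 21.6 and 22.9 FPKM at 50 mM, in experiment 2, a 2.01-fold lower mean (log2 change -0.96 ± 0.10, SE, adjusted p = 2.99e-06). In experiment 1 it was at 5.67, 5.83 and 6.57 FPKM at 500 mM, against 11.5 and 7.56 FPKM at 50 mM. That fall (log2 change -0.56 ± 0.17, SE, adjusted p = 0.0163) rested on the first library at 50 mM, and without it the change was -0.29 with an adjusted p of 0.211, within a range of 0.00358 to 0.211 over all alternatives for this result.

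*aqp-5*, the lowest of the tested genes, was at 1.89, 2.24 and 1.16 FPKM at 500 mM, against 3.23, 2.10 and 3.62 FPKM at 50 mM, in experiment 2. The call (log2 change -0.53 ± 0.18, SE, adjusted p = 0.0175) stood although a library at 500 mM exceeded a library at 50 mM. In experiment 1 the values were 1.55, 1.33 and 1.12 FPKM at 500 mM, against 2.43 and 1.85 FPKM at 50 mM, with a log2 change of -0.43 ± 0.15 (SE, adjusted p = 0.0392). Both calls were lost when certain libraries were left out. In experiment 2 these were the libraries at 50 mM numbered 3 (-0.47) and 5 (-0.41) and that at 500 mM numbered 6 (-0.36), with adjusted p between 0.00259 and 0.169 over all alternatives. In experiment 1 they were the wild-type libraries 1 at 50 mM (-0.29), 2 at 500 mM (-0.43) and 3 at 500 mM (-0.36) and the *ssu-1* library 2 at 500 mM (-0.43), with adjusted p between 0.0226 and 0.263 over all alternatives.

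*aqp-6* and *aqp-2* did not share the fall. *aqp-6* was at 9.73, 8.07 and 8.67 FPKM at 500 mM, against 7.59, 5.70 and 4.98 FPKM at 50 mM, in experiment 2, and it rose there (log2 change 0.48 ± 0.16, SE, adjusted p = 0.0185). The call was lost without the wild-type library 5 at 50 mM (0.37) or library 4 at 500 mM (0.42), with adjusted p between 0.00464 and 0.0718 over all alternatives. In experiment 1 *aqp-6* was at 4.75, 4.8 and 5.12 FPKM at 500 mM, against 3.87 and 3.84 FPKM at 50 mM, groups that did not overlap but differed by a log2 change of 0.28 ± 0.12 that missed the threshold (SE, adjusted p = 0.0685). This rise was called in 2 of 17 alternatives, with adjusted p in limma between 0.0226 and 0.184 over all of them. The water channel gene *aqp-2* was at 2969, 2804 and 3185 FPKM at 500 mM, against 1341, 1606 and 1520 FPKM at 50 mM, in experiment 2. Its mean was 2.01-fold higher (log2 change 1.01 ± 0.10, SE, adjusted p = 3.13e-06). In experiment 1 the same gene was at 3279, 3497 and 3285 FPKM at 500 mM, against 3362 and 3607 FPKM at 50 mM, and the groups overlapped (log2 change -0.06 ± 0.06, SE, 95% interval -0.19 to 0.08, adjusted p = 0.474).

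**Figure D2:**
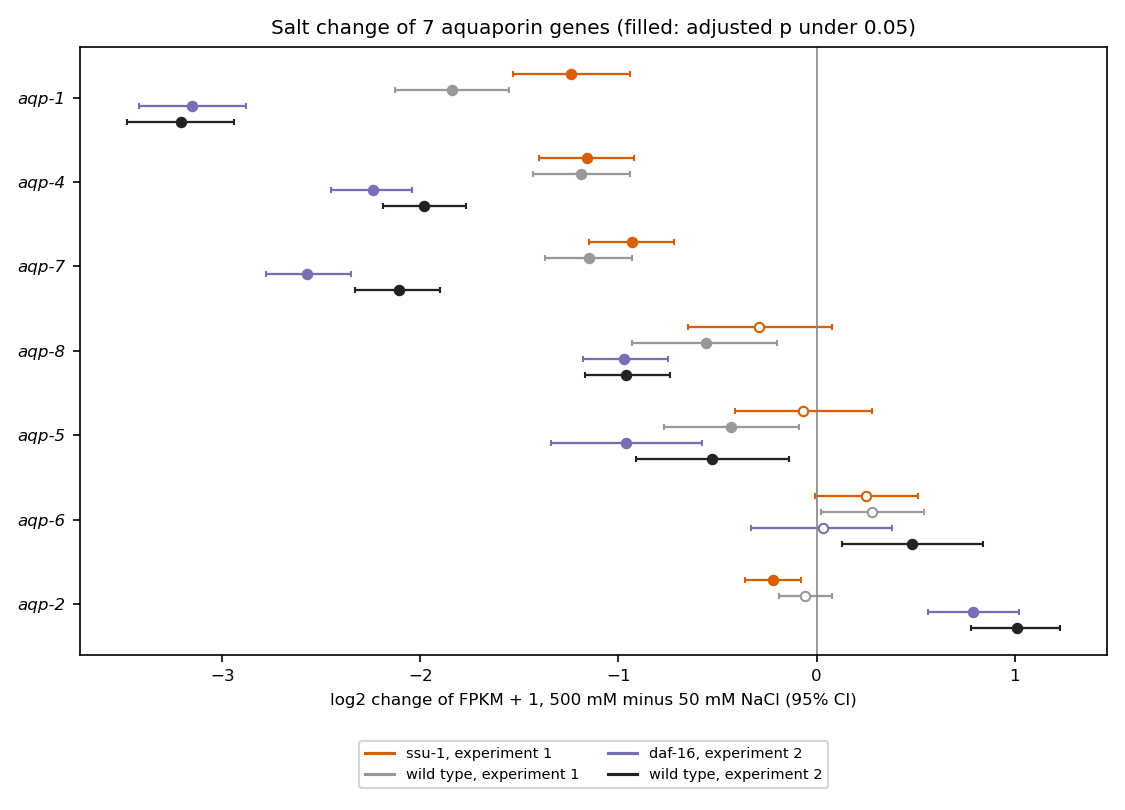
Log2 change of FPKM + 1 at 500 mM minus 50 mM NaCl (horizontal axis) for 7 aquaporin genes, with 95% intervals of the limma fit and filled points for an adjusted p under 0.05. *aqp-1*, *aqp-4* and *aqp-7* lie left of 0 in all 4 comparisons and farther left in experiment 2, and *aqp-2* lies right of 0 in experiment 2 (1.01 in wild type).

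Markers of the intestine moved in both directions. Of 9 of them, 5 were lower and 3 higher at 500 mM in wild type of experiment 1, where 26.0% of all genes were lower and 25.3% higher, and 5 were lower and 2 higher in experiment 2, where 33.5% were lower and 36.7% higher. Their summed level lay between 1286 and 1461 FPKM at 500 mM, against 1752 to 2220 FPKM at 50 mM, in experiment 1, and between 2033 and 2223 FPKM at 500 mM, against 4786 to 6840 FPKM at 50 mM, in experiment 2. Most of that sum was *asp-1*, which averaged 1167 FPKM at 500 mM, against 3529 FPKM at 50 mM, in experiment 2. The peptide transporter gene *pept-1* averaged 17.4 FPKM at 500 mM, against 97.6 FPKM at 50 mM, and the intestinal actin gene *act-5* averaged 408.3 FPKM at 500 mM, against 1240 FPKM at 50 mM, in experiment 2. The GATA factor gene *elt-2*, which defines the intestine, averaged 15.8 FPKM at 500 mM, against 14.9 FPKM at 50 mM (log2 change 0.08, adjusted p = 0.425), and *elt-7* rose (0.76, adjusted p = 1.39e-05). *cpr-6* also rose in experiment 2, with 152.6 FPKM at 500 mM, against 28.6 FPKM at 50 mM, and *ges-1* was called higher in experiment 1 only (0.41, adjusted p = 0.0133). In RNA from whole embryos, fewer cells of a type and less RNA per cell cannot be told apart. Of 8 markers of the excretory canal cell, 4 were lower and 1 higher in experiment 1 and 1 was lower and 3 higher in experiment 2, where their summed level lay between 835.4 and 903.5 FPKM at 500 mM, against 800.2 to 990.7 FPKM at 50 mM. In wild type of experiment 1 that sum was lower with salt, between 723.7 and 747.7 FPKM at 500 mM, against 808.6 to 843.2 FPKM at 50 mM. Of 7 early embryo markers, 5 were higher and 0 lower in experiment 1 and 5 higher and 1 lower in experiment 2, and of 7 late embryo markers 0 were higher and 1 lower in experiment 1 and 5 higher and 1 lower in experiment 2. The canal marker *pgp-12* averaged 0.95 FPKM at 500 mM, against 7.2 FPKM at 50 mM, in experiment 2 and was the only marker of these lists to stay under 1 FPKM throughout a group, at 500 mM in the other 3 pairs. The part of these cell types and stages in the change of the aquaporins was not tested.

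In *ssu-1* mutant embryos, 4 of the 7 tested genes fell with salt and 0 rose, where 18.1% of all tested genes were called lower and 18.5% higher. The median log2 change of the 7 was -0.29, against -0.00 over all genes. *aqp-1* was at 4.49, 4.69 and 4.78 FPKM at 500 mM, against 12.3 and 12.4 FPKM at 50 mM (log2 change -1.24 ± 0.13, SE, adjusted p = 8.94e-05). *aqp-4* was at 7.59, 7.20 and 7.46 FPKM at 500 mM, against 19.5 and 16.3 FPKM at 50 mM (-1.16 ± 0.11, SE, adjusted p = 4.41e-05). *aqp-7* was at 44.9, 38.8 and 34.9 FPKM at 500 mM, against 75.3 and 77.0 FPKM at 50 mM (-0.93 ± 0.10, SE, adjusted p = 8.76e-05). For these 3 genes no library at 500 mM reached the libraries at 50 mM.

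*aqp-2* was slightly lower in salt-treated *ssu-1* mutants. It was at 3177, 3117 and 3168 FPKM at 500 mM, against 3662 and 3681 FPKM at 50 mM (log2 change -0.22 ± 0.06, SE, adjusted p = 0.0189). This direction depended on the scaling, because quantile normalization gave a change of 0.10, and the call was lost without either *ssu-1* library at 50 mM (-0.22 each), with adjusted p between 0.0155 and 0.294 over all alternatives. *aqp-8*, *aqp-6* and *aqp-5* missed the threshold in the limma fit, with log2 changes of -0.29 (95% interval -0.65 to 0.08), 0.25 (-0.01 to 0.51) and -0.07 (-0.41 to 0.28).

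The salt change itself was then set against wild type. None of the 7 genes differed between *ssu-1* mutants and wild type in the limma fit, where 1.37% of all tested genes did, and 1 of the 7 had an unadjusted p under 0.05. That gene was *aqp-1*, whose salt change was less negative in the mutant by 0.60 on the log2 scale (95% interval 0.19 to 1.01). Its adjusted p in limma was 0.176, and lay between 0.0687 and 0.594 over all alternatives. At 500 mM *aqp-1* lay between 4.49 and 4.78 FPKM in *ssu-1* mutants, against 2.55 to 3.89 FPKM in wild type, and the groups did not overlap. That level difference of 0.41 ± 0.12 (SE) had an adjusted p of 0.0715 and passed the threshold without the wild-type library 3 at 500 mM (0.52, adjusted p = 0.032, with 0.032 to 0.202 over the fits that left out a library). The interval of the difference in salt change was -0.36 to 0.03 for *aqp-2*, -0.32 to 0.37 for *aqp-4*, -0.09 to 0.53 for *aqp-7* and -0.24 to 0.80 for *aqp-8*. Intestine markers summed to between 1417 and 1510 FPKM at 500 mM, against 1573 to 1737 FPKM at 50 mM, in *ssu-1* mutants. With salt 3 of 9 were higher and 2 lower there, where 18.5% of all tested genes were higher and 18.1% lower, and their part was not tested. At 50 mM, 0 of 7 genes differed between *ssu-1* mutants and wild type (0.646% of all tested genes did) and 0 had an unadjusted p under 0.05. At 500 mM, 0 of 7 differed (5.64% of all tested genes did) and 1 had an unadjusted p under 0.05.

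In *daf-16* mutant embryos, 5 of the 7 genes fell with salt and 1 rose, where 41.1% of all tested genes were called lower and 37.1% higher. The median log2 change of the 7 was -0.97, against -0.06 over all genes. *aqp-1* was at 4.99, 3.70 and 4.18 FPKM at 500 mM, against 44.9, 45.6 and 46.3 FPKM at 50 mM (log2 change -3.15 ± 0.12, SE, adjusted p = 8.99e-10). The fall of this gene was 10.6-fold by the means. *aqp-4* was at 6.6, 5.6 and 5.86 FPKM at 500 mM, against 31.1, 32.8 and 32.7 FPKM at 50 mM (-2.24 ± 0.10, SE, adjusted p = 1.51e-09). *aqp-8* was at 10.6, 10.9 and 10.6 FPKM at 500 mM, against 22.4, 20.3 and 22.9 FPKM at 50 mM (-0.97 ± 0.10, SE, adjusted p = 1.77e-06). Each of these groups was separate from its counterpart.

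*aqp-5* fell, at 1.70, 1.24 and 1.38 FPKM at 500 mM, against 3.58, 3.89 and 3.75 FPKM at 50 mM (-0.96 ± 0.18, SE, adjusted p = 0.000264). Its salt change did not differ from wild type beyond the threshold (difference -0.43, 95% interval -0.98 to 0.11, adjusted p = 0.23). *aqp-2* rose, at 2696, 3082 and 2705 FPKM at 500 mM, against 1692, 1604 and 1592 FPKM at 50 mM (0.79 ± 0.10, SE, adjusted p = 1.67e-05). *aqp-6* was at 6.55, 5.28 and 8.0 FPKM at 500 mM, against 6.69, 5.43 and 7.16 FPKM at 50 mM, and these groups overlapped (0.03, 95% interval -0.33 to 0.38).

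Only *aqp-7* had a salt change in *daf-16* mutants that differed from wild type, 1 of 7 genes, where 18.1% of all tested genes did. It was at 36.0, 30.8 and 33.6 FPKM at 500 mM, against 200.3, 201.7 and 206.4 FPKM at 50 mM, in the mutant, a fall of 6.06-fold by the means (-2.57 ± 0.10, SE, adjusted p = 7.78e-10). The change was more negative than in wild type by 0.45 on the log2 scale (95% interval -0.76 to -0.15, adjusted p = 0.0426). That call was close to the threshold and was lost in 14 of 20 alternatives, among them the fit without any single library of the experiment other than the wild-type library 3 at 50 mM. Over the 20 alternatives the difference lay between -0.58 and -0.37 and the adjusted p between 0.00387 and 0.0944. At 500 mM *aqp-7* lay between 30.8 and 36.0 FPKM in *daf-16* mutants, against 41.0 to 45.2 FPKM in wild type, with a log2 difference of -0.35 ± 0.10 (SE, adjusted p = 0.0205), the only call among the 7 genes, where 29.2% of all tested genes differed. *aqp-4* (-0.22) and *aqp-6* (-0.38) differed there by amounts that missed the threshold. This call was lost without the wild-type library 5 (-0.31) or the *daf-16* library 2 (-0.29) or 3 (-0.35) at 500 mM, with adjusted p between 0.0023 and 0.0751 over all alternatives.

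At 50 mM, 0 of the 7 genes differed between *daf-16* mutants and wild type in the limma fit (3.68% of all tested genes did) and 0 had an unadjusted p under 0.05. *aqp-1* averaged 45.6 ± 0.66 FPKM in *daf-16* mutants and 45.7 ± 6.75 FPKM in wild type (SD, n = 3 each), a log2 difference of 0.01 with a 95% interval of -0.26 to 0.28. Its salt change differed by 0.06 between them, with an interval of -0.32 to 0.44. The corresponding intervals were -0.54 to 0.11 for *aqp-2*, -0.56 to 0.03 for *aqp-4*, -0.96 to 0.05 for *aqp-6* and -0.31 to 0.30 for *aqp-8*. The 3 wild-type libraries at 50 mM of this experiment included 2 whose library numbers belong to another series. Leaving out those 2 leaves 1 wild-type library at 50 mM, which is then assumed to vary like the other groups. On that assumption 5 members were called lower and 2 higher in wild type, and 1 differed in its salt change. Intestine markers summed to between 1752 and 1949 FPKM at 500 mM, against 5069 to 5143 FPKM at 50 mM, in *daf-16* mutants. With salt 2 of 9 were higher and 5 lower there, where 37.1% of all tested genes were higher and 41.1% lower, and their part was not tested.

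**Figure D3:**
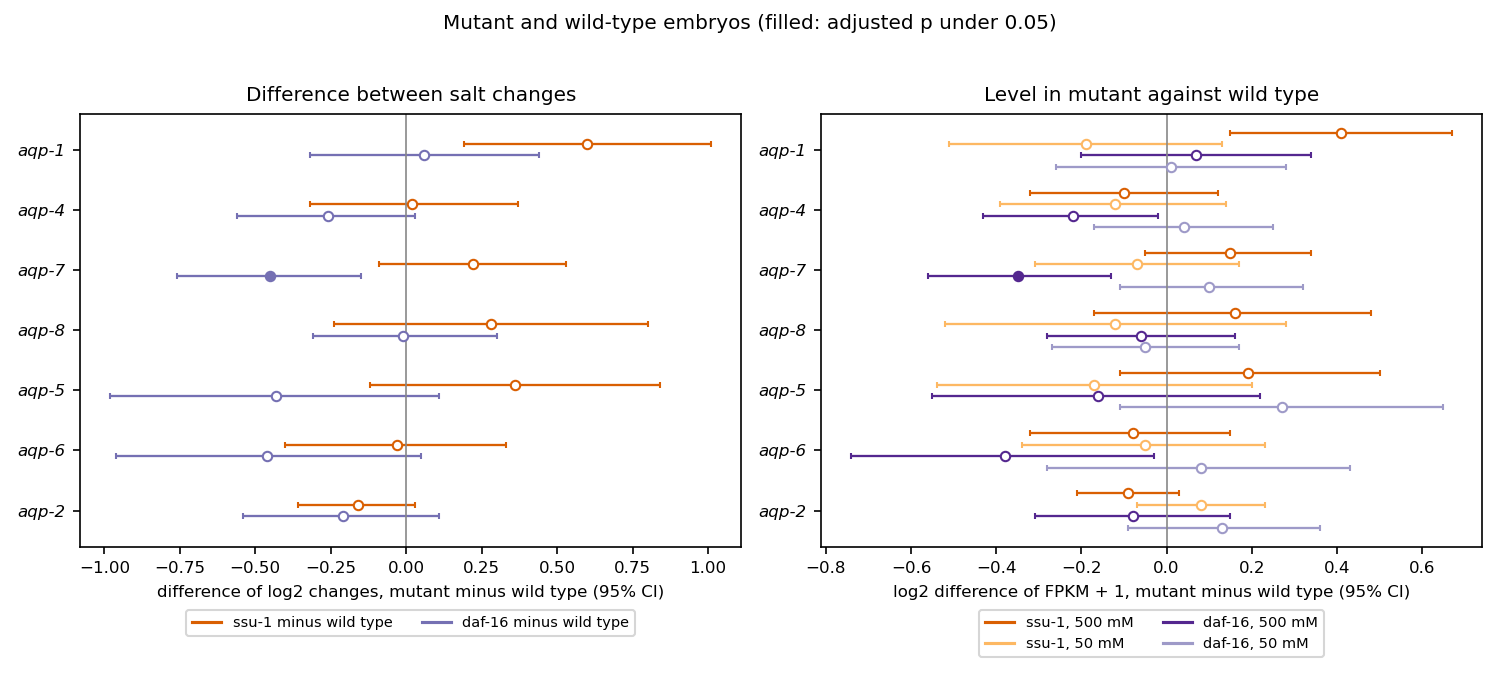
Left, difference between the salt change of a mutant and that of wild type. Right, level in a mutant minus that in wild type at each NaCl concentration, both as log2 differences of FPKM + 1 with 95% intervals (horizontal axes) for 7 aquaporin genes, filled for an adjusted p under 0.05. The filled points are *aqp-7* in *daf-16* mutants, at -0.45 on the left and -0.35 on the right.

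The wild-type salt change of the aquaporins also differed between the experiments. It was more negative in experiment 2 for *aqp-1* (difference -1.37 ± 0.22, SE, adjusted p = 0.00131), *aqp-7* (-0.96 ± 0.16, adjusted p = 0.00154) and *aqp-4* (-0.79 ± 0.17, adjusted p = 0.00502) and more positive for *aqp-2* (1.06 ± 0.17, adjusted p = 0.00108). These 4 of 7 genes compare with 31.6% of all 14638 tested genes that differed. *aqp-5*, *aqp-6* and *aqp-8* had intervals of -0.73 to 0.53, -0.24 to 0.66 and -0.87 to 0.08. Without the wild-type library 1 at 50 mM of experiment 1, *aqp-8* also differed (-0.67, adjusted p = 0.0374, with 0.0374 to 0.708 over the fits that left out a library).

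The levels themselves were then compared between the experiments, a comparison added after the values were seen. In wild type at 50 mM, *aqp-1* averaged 45.7 FPKM in experiment 2 and 14.2 FPKM in experiment 1, *aqp-7* averaged 190.0 FPKM in experiment 2 and 80.2 FPKM in experiment 1, and *aqp-8* averaged 22.7 FPKM in experiment 2 and 9.54 FPKM in experiment 1. For *aqp-2* the order was the reverse, with 1489 FPKM in experiment 2 and 3485 FPKM in experiment 1 (log2 difference -1.23 ± 0.12, SE, adjusted p = 1.03e-05). In all, 5 genes were higher and 1 lower in experiment 2 at 50 mM, where 31.0% of all tested genes were higher and 35.1% lower. The call of *aqp-6* was lost in 2 of 17 alternatives, with adjusted p between 0.00248 and 0.165 over all of them. One of these was the fit without library 2 at 50 mM of experiment 1 (0.53, adjusted p = 0.0512). *aqp-5* was called without library 4 at 50 mM of experiment 2 (0.50, adjusted p = 0.0462), with adjusted p between 0.0462 and 0.801 over all alternatives. At 500 mM, 2 genes were higher and 0 lower, where 21.9% were higher and 25.0% lower. The 2 were *aqp-6* (8.82 FPKM in experiment 2 and 4.89 FPKM in experiment 1) and *aqp-8* (11.2 FPKM in experiment 2 and 6.02 FPKM in experiment 1). *aqp-7* missed the threshold (0.26, adjusted p = 0.0631) but was called higher in 5 of 17 alternatives, 3 of which left out a library (library 3 at 500 mM of experiment 1, with a difference of 0.33, or library 3 or 4 at 50 mM of experiment 2, with 0.26 each), with adjusted p between 0.00738 and 0.186 over all of them. *aqp-1* at 500 mM averaged 4.03 FPKM in experiment 2 and 3.28 FPKM in experiment 1 (log2 difference 0.24, 95% interval -0.09 to 0.57), and *aqp-4* averaged 7.19 FPKM in experiment 2 and 8.05 FPKM in experiment 1 (-0.14, -0.38 to 0.10). Of 7 late embryo markers 2 were higher and 5 lower, and of 9 intestine markers 6 were higher and 3 lower, in experiment 2 at 50 mM. Late embryo markers at 50 mM summed to between 3060 and 4062 FPKM in experiment 2, against 5329 to 5431 FPKM in experiment 1, and intestine markers to between 4786 and 6840 FPKM in experiment 2, against 1752 to 2220 FPKM in experiment 1. The late embryo sum was mostly *sqt-3* (2232 FPKM in experiment 2 and 4210 FPKM in experiment 1), while *unc-54* went the other way (718.8 FPKM in experiment 2 and 274.1 FPKM in experiment 1). The intestine sum was mostly *asp-1* (3529 FPKM in experiment 2 and 1018 FPKM in experiment 1), while *elt-2*, *elt-7* and *cpr-6* were lower in experiment 2. Their part in the gap was not tested, and the experiment cannot be told apart from whatever else differed between the 2 sets of embryos.

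**Figure D4:**
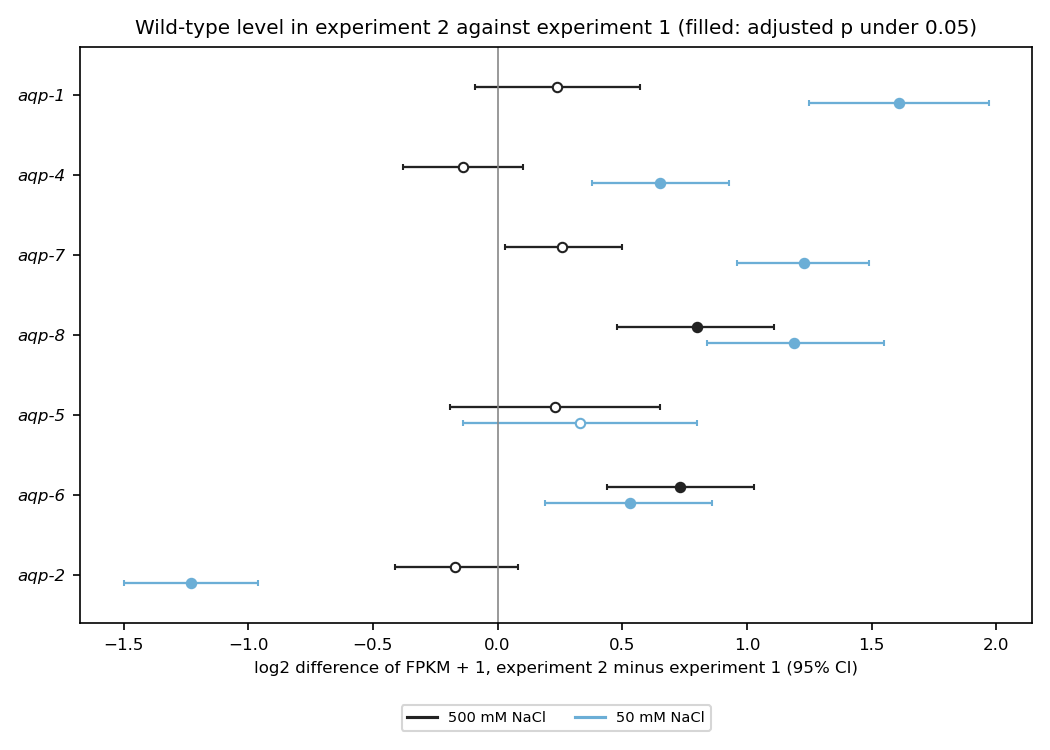
Log2 difference of FPKM + 1 between wild-type embryos of experiment 2 and experiment 1 (horizontal axis, 95% intervals) at 500 mM and 50 mM NaCl for 7 aquaporin genes, filled for an adjusted p under 0.05. At 50 mM *aqp-1*, *aqp-7* and *aqp-8* lie at 1.61, 1.23 and 1.19 and *aqp-2* at -1.23, while at 500 mM *aqp-1*, *aqp-4* and *aqp-2* have intervals that include 0.

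The 4 other genes that carry an aquaporin symbol moved in both directions. *aqp-9* fell in wild type of experiment 2, at 1.87, 1.82 and 1.1 FPKM at 500 mM, against 12.4, 10.2 and 13.1 FPKM at 50 mM (log2 change -2.32 ± 0.16, SE, adjusted p = 9.9e-08), and in *daf-16* mutants (-2.08, adjusted p = 1.82e-07). It fell in wild type of experiment 1 (-0.73, adjusted p = 0.0198), and in *ssu-1* mutants its change of -0.30 had an adjusted p of 0.319. *aqp-10*, among the more abundant with 128.0 FPKM at 500 mM, against 91.1 FPKM at 50 mM in wild type of experiment 2, rose there (0.48, adjusted p = 9.15e-05) and in *daf-16* mutants (0.75, adjusted p = 1.35e-06), while its changes in experiment 1 (-0.01 in *ssu-1* mutants, 0.04 for N2) missed the threshold. At 500 mM it averaged 153.7 FPKM in *daf-16* mutants, against 128.0 FPKM in N2 (0.27, adjusted p = 0.0194). *aqp-11* fell slightly in experiment 2 (-0.29 in *daf-16* mutants and -0.30 in wild type), but the call in *daf-16* mutants was lost with libraries rescaled to one FPKM total (-0.11, adjusted p = 0.19). *aqp-12* was called lower only in *ssu-1* mutants (-0.58, adjusted p = 0.0172), and a wild-type library at 50 mM of experiment 2 stood at 9.15 FPKM beside 2.62 and 2.91 FPKM.

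Across the 22 libraries, with the mean of each experiment taken off, *aqp-1*, *aqp-4* and *aqp-7* followed each other closely (Pearson r = 0.99 for each pair). *aqp-8* correlated with them at 0.93 to 0.95 and *aqp-5* at 0.85 to 0.86. Within experiment 1 these values were lower, at 0.75 to 0.82 for *aqp-8* and 0.60 to 0.71 for *aqp-5*. Within experiment 2 they were 0.98 for *aqp-8* and 0.89 to 0.90 for *aqp-5*. *aqp-6* was negative against *aqp-1* (-0.56 pooled, -0.51 over the 12 libraries of experiment 2 and -0.81 over the 10 of experiment 1). For *aqp-2* against *aqp-1* the direction turned between the experiments, with -0.98 in experiment 2 and 0.60 in experiment 1, so the pooled value of -0.84 describes experiment 2. The points share their libraries and the NaCl concentration, and for *aqp-1*, 1363 of 10427 genes compared had an r above 0.9, so this likeness is common. The genes most like *aqp-1* were C05D12.3, *pept-1* and *mfsd-8.3* (r = 0.993 each). Those most like *aqp-4* were *ifd-2*, which encodes an intestinal intermediate filament protein (0.995), *pept-1* (0.991) and *arrd-18* (0.990), and those most like *aqp-7* were *spig-11* (0.996), *pept-1* (0.994) and *gcsh-1* (0.993). *pept-1* thus stood among the nearest 3 for each of these aquaporins. *aqp-8* was nearest to the amino acid transporter gene *aat-5* (0.974), *irg-7* (0.973) and *dod-17* (0.971), and *aqp-5* to the calcium channel subunit gene *unc-36* (0.923), C17H12.10 (0.921) and *latd-1* (0.919). *aqp-2* was nearest to *syd-9* (0.987), F13E9.11 (0.980) and *nsy-4* (0.980). *aqp-6* had no gene above 0.9, and the nearest were F57C2.5, *slc-25A21* and *rml-1* (0.776 to 0.826).

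The genes listed for osmolyte metabolism and transport mostly rose with salt. Of 9 such genes, 8 rose and 0 fell in *ssu-1* mutants and 7 rose and 0 fell in wild type of experiment 1. In experiment 2, 6 rose and 1 fell in *daf-16* mutants and 7 rose and 0 fell in wild type. Of all tested genes, 18.5% were higher and 18.1% lower in *ssu-1* mutants, and 25.3% higher and 26.0% lower in wild type of experiment 1. The shares were 37.1% higher and 41.1% lower in *daf-16* mutants, and 36.7% higher and 33.5% lower in wild type of experiment 2. The glycerol 3-phosphate dehydrogenase gene *gpdh-1* averaged 138.5 FPKM at 500 mM, against 2.67 FPKM at 50 mM, in wild type of experiment 2, and its relative *gpdh-2* averaged 226.3 FPKM at 500 mM, against 106.2 FPKM at 50 mM. *pgph-2* averaged 122.5 FPKM at 500 mM, against 4.23 FPKM at 50 mM. Of 12 regulators of the hypertonic response, 3 rose and 4 fell in *ssu-1* mutants and 3 rose and 7 fell in wild type of experiment 1. In experiment 2, 5 rose and 6 fell in *daf-16* mutants and 6 rose and 5 fell in wild type. The same shares of all genes apply to these counts, which are not read as a trait of the regulators. The Notch co-ligand gene *osm-11* fell in wild type of experiment 2 (38.7 FPKM at 500 mM, against 202.6 FPKM at 50 mM, log2 change -2.31), the kinase gene *unc-43* fell by less (-0.50) and *egl-27* rose (0.31).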

How the data were processed

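The authors mapped 75-nucleotide paired-end, strand-specific reads to ce10 with RSEM 1.2.15 and Bowtie 1.0.1, with WormBase WS235 gene identifiers, and deposited 1 table of FPKM for 22 libraries. Their methods name DESeq2 on expected counts, which are not used here. The table had 45461 rows, of which 1 named no gene and was dropped, and 23483 genes were at 0 throughout. Symbols came from a RefSeq table of another assembly (44079 identifiers found there) and gene overlaps from an Ensembl annotation, so coordinates are left out. Groups follow the titles and experiments the library numbers in the labels, with the 2 wild-type libraries of another series placed in experiment 2.

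FPKM + 1 was log2 transformed and fitted with limma 3.58.1 in R 4.3.3 (eBayes with trend), with all libraries of an experiment in a fit, or the 11 wild-type libraries for the difference between experiments, for genes with at least 1 FPKM in at least 2 libraries, and Benjamini-Hochberg adjustment over all of them. The fit was also run on simulated data with large changes in a small set of genes, a setting that does not test calls near the threshold. The labels number the replicates without saying whether they came from separate cultures, so p-values measure the spread between these libraries, which may be technical. Depth was estimated from single-transcript genes (11089 used) and limits precision near 1 FPKM. Intervals are those of the fit. All 8 members are named, with *aqp-9* to *aqp-12*, the 3 genes with the highest Pearson r for each member (mean FPKM of at least 5) and the 3 most abundant genes of the osmolyte and regulator lists, while the cell type and stage markers were named after their values were seen. The members and lists were chosen with earlier results of these data known. Alternatives were a pseudocount of 0.1, no filter, other scalings, no trend, all 22 libraries in 1 fit, a replicate block and each library left out. Plots used matplotlib 3.10.9 (Python 3.11.15).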

Additional observations from a re-analysis of the deposited data

Results flagged for a closer look

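The salt change of *aqp-7* differed by -0.45 between *daf-16* mutants and wild type of experiment 2 by the limma test of the difference itself. In wild type, the salt change in experiment 2 differed from that in experiment 1, by the same kind of test, for *aqp-1* (-1.37), *aqp-2* (1.06), *aqp-4* (-0.79) and *aqp-7* (-0.96). The values behind both are given in the report. Groups of 2 or 3 libraries are too small for a test of single outlying libraries.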

How the results depend on the processing

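Of the values for single members, 1585 kept their side of the threshold over the alternatives, 40 lost a call and 12 gained one. Among values with a call, 1 reversed its direction, the salt change of *aqp-2* in *ssu-1* mutants (0.10 with quantile normalization). Changes of direction in values that were never called are counted among the 1585, such as *aqp-5* in *ssu-1* mutants (-0.16 to 0.02). The number of members whose salt change differed between *daf-16* mutants and wild type was 0 without a filter, with libraries rescaled to one FPKM total and without the trend, and 0 to 1 with a library left out, against 1. At 500 mM, 2 members differed between *daf-16* mutants and wild type with all 22 libraries in 1 fit, and 0 to 1 with a library left out, against 1. With a library left out, the number was 3 to 5 for the salt change in wild type of experiment 1 and 0 to 1 for *ssu-1* mutants against wild type at 500 mM. Rescaling to one FPKM total moved the median change of all genes to 0.11 in *daf-16* mutants and 0.16 in wild type of experiment 2, against -0.06 and 0.06, and quantile normalization gave *aqp-2* a salt change of 1.28 in *daf-16* mutants. The cause of these shifts was not tested. Same-numbered libraries correlated between -0.40 and 0.28 in their deviations. In groups of 2 or 3 libraries these deviations are not independent, so whether the numbers pair samples is not settled. With the replicate number as a block, 4 members were called in *ssu-1* mutants and 4 in wild type of experiment 1, 6 in *daf-16* mutants and 6 in wild type of experiment 2, 1 between those salt changes and 3 between the experiments. The block lost the call of *aqp-4* between the experiments (-0.71, adjusted p = 0.0863, the highest of its 19 alternatives, which began at 0.000263) and those of *aqp-5* in wild type of both experiments. The estimated depth leaves *aqp-5* with 22 to 96 fragments a library and *aqp-3* with at most 4.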
